A study of Mus musculus with 4 samples.

Results

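Mitochondrial ribosomal protein genes are the nuclear genes whose symbols on the array begin with Mrpl, for proteins of the large subunit of the mitochondrial ribosome, or Mrps, for proteins of the small subunit. The array held 75 of them, 46 Mrpl and 29 Mrps, among 13923 genes tested, and the brightest probe of a gene over the 4 arrays stood for it. Wild type primary fibroblasts from embryos of C57BL/6 mice were transfected with negative control siRNA or with siRNA to Xpo5. This gene encodes Exportin-5, which carries precursor microRNAs out of the nucleus. Both groups had 60 nM siRNA for 12 h, then 48 h in medium with 0.2% fetal calf serum, then 24 h in 20% serum together with a repeat of the transfection, so that all cells were returning from starvation to growth. Both groups had 1 sample in each of 2 independent experiments, giving 4 arrays of 1 colour, each with 1 sample. The comparison asks what the loss of Exportin-5 does to the transcripts of these genes, and whether the large and the small subunit genes differ in it.

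The mitochondrial ribosome makes the few proteins that mitochondrial DNA encodes, all of them core subunits of the respiratory chain and of ATP synthase. Its ribosomal RNAs come from the mitochondrial genome, while every one of its proteins is encoded in the nucleus, made in the cytosol and imported. Many of these proteins have counterparts in bacterial ribosomes, and others are found only in mitochondria. The genes lie scattered over the nuclear genome and are commonly described as targets of nuclear respiratory factor 1 (NRF1), of the ETS factor GABP and of YY1.

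Promoter windows are shown here because motifs of these factors, which the choice by name did not use, were found in more of the members' windows than of all windows. This is a description with no test, and it does not hold for every member. RefSeq windows of GRCm38.p6, from 250 bases before to 50 bases after each annotated start, matched 66 of the 75 members, with 72 windows. Mrpl4, Mrpl13, Mrpl15, Mrpl19, Mrpl38, Mrpl54, Mrps28, Mrps34 and Mrps35 had none. Windows were searched on both strands for an NRF1 motif (GCGCANGCG), an ETS motif (CCGGAAG) and a YY1 motif (AANATGGCG), of which the ETS and YY1 motifs can share the letters AAG at their joint. The NRF1 motif lay in 20.8% of the members' windows against 6.25% of all 32851 windows searched, which had the same length. Windows of 1 chromosome, on which no member lies, were not searched. The ETS motif lay in 33.3% against 8.86%, and the YY1 motif in 12.5% against 2.38%. At least 1 of the motifs was found in 40 of the 66 members, and the sequences below show 1 large subunit gene with a single NRF1 match, 1 with 3, Mrps genes with an ETS match beside NRF1 or YY1, and Mrpl49, which has the smallest p of all members and no match. Capitals mark the matches, and each run reads 5′ to 3′ on the strand of the gene.
Mrpl12, chr11:120484387-120484686, plus strand: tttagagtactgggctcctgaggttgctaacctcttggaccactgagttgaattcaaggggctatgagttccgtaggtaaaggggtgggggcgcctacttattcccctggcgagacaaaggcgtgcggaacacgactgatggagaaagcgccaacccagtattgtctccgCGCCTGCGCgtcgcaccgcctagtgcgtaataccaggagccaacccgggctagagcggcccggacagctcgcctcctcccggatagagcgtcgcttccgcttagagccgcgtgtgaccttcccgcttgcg
Mrpl45, chr11:97315466-97315765, plus strand: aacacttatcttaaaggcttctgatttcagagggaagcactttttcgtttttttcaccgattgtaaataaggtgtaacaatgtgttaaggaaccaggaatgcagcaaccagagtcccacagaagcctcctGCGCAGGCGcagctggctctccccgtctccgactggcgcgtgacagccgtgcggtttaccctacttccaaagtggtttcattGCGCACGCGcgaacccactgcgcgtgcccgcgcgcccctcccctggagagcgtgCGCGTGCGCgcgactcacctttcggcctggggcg
Mrps26, chr2:130563507-130563806, plus strand: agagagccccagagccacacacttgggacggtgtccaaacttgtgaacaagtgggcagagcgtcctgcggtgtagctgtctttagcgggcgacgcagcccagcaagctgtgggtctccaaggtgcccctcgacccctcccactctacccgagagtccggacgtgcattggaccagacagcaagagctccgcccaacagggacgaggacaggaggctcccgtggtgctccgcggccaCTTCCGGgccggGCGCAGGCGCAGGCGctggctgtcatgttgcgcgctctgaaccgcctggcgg
Mrps18a, chr17:46110754-46111053, plus strand: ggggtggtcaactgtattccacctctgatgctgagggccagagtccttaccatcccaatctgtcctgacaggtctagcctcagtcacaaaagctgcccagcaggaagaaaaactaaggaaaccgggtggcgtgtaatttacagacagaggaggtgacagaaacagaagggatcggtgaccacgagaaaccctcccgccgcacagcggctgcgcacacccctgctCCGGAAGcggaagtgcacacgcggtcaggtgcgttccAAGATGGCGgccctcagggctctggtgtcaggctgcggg
Mrpl49, chr19:6057706-6058005, minus strand: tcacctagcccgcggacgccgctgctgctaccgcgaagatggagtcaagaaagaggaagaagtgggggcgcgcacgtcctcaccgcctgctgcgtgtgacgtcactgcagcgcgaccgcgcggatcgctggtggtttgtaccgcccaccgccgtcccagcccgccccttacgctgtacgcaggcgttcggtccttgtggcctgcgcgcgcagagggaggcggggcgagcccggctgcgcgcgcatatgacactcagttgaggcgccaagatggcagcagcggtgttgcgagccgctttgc

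A match is a description of the letters in a window and not a bound site. The NRF1 match of Mrpl12 begins 80 bases before the start, and the first of 2 overlapping NRF1 matches of Mrps26 begins 2 bases before it, with the ETS match at 14 bases before. In Mrps18a the ETS match begins 26 bases before the start, and the YY1 match begins at base 12 of the transcript, counted from 1 at the start. As a ratio, other motifs were closer to their share over all windows. A GC box (GGGCGG) was in 51.4% of the members' windows against 35.7%, CCAAT in 40.3% against 37.4%, an E-box (CACGTG) in 9.72% against 7.15%, and TATAAA in 6.94% against 13.6%. In percentage points the GC box stood further above its share than the NRF1 and YY1 motifs did.

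The targeted gene was checked first. Levels are given throughout as log2 signal minus the 75th percentile of its array. Xpo5 read 1.31 and 1.26 in the control arrays and -1.95 and -1.93 in the Xpo5 siRNA arrays. It fell by 3.23 ± 0.12 (SE; 2 arrays a group; limma adjusted p = 0.0106), to 10.7% of the control signal. It missed the threshold with dim probes kept (0.168), with the mean over its probes (-2.55, adjusted p = 0.148) and under further settings given near the end. Without replicate 1 of Xpo5 siRNA the difference was -3.22 (adjusted p = 0.0623), in a fit that assumes the lone array of that group to vary like the controls. The fibroblast markers of the labelled cell type were present, with 12 of 12 tested and median levels of 6.22 and 5.85 in the control arrays and 6.29 and 6.01 in the Xpo5 siRNA arrays. Markers of other cells were present too. All 10 macrophage markers were higher with Xpo5 siRNA, with median levels of -0.58 and -1.16 against 0.01 and -0.25. Of all 13923 genes 7123 were higher. Adgre1, Aif1, Fcgr1, Itgam and Laptm5 rose with the replicate number as a block, where 415 of all 13923 genes rose. Of 6 neural markers, Gfap was not tested as it was dim, Nefl, Map2 and S100b rose with the block, and Nes and Tubb3 read -0.45 and -0.38. Of 5 endothelial markers, Pecam1 and Cdh5 were too dim to test. Of the 3 tested, 2 were higher and 1 was lower, with differences from -0.34 to 1.19, and Kdr rose with the block. Of 7 muscle markers 2 were tested, with a median difference of 0.19, and of 5 epithelial markers 3 were, with a median of -0.01. The part that such cells play in the values below was not tested, and with bulk samples fewer cells of a type and less RNA per cell cannot be told apart.

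Across the 75 members the signal with Xpo5 siRNA differed little from that with control siRNA, and most members were slightly lower. The median level of the members was 3.03 and 2.99 in the control arrays and 2.92 and 2.81 in the Xpo5 siRNA arrays, so that both Xpo5 siRNA arrays lay below both controls, with an SD of 0.0632 between arrays of a group. The median difference was -0.09 on the log2 scale, against 0.01 for all genes tested. Of the members 56, or 74.7%, were lower, against 48.8% of all genes, and 19 were higher. Single members ranged from -0.42 for Mrpl19, a protein of the side that faces the small subunit, to 0.27 for Mrps14, a protein of the head of the small subunit. In all 75 the 95% interval of the difference lay within a 2-fold change in either direction, the widest limits being -0.97 and 0.67. On its brightest probe none differed by more than 0.5, a size that 12.7% of all genes exceeded. Some dimmer probes of members did exceed it, among them those of Mrpl35 and Mrpl45 given below. The median of the sizes without sign was 0.10 for the members and 0.18 for all genes. The members also read brighter, as the median level of all genes was 0.39 and 0.35 in the control arrays. The part of brightness in these sizes was not tested. Normexp background correction over all spots took the members' median to -1.27 and that of all genes to -0.16. Its SEs were far larger, such as 1.03 for Mrpl12 against 0.13 in the main fit. Normexp without the spots marked as uneven, 0 to 34 an array, gave -0.11 for the members.

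A sign of RNA quality was read from genes with kept probes more than 500 bases apart in the genome, as the signal of the probe nearest the 3′ end minus that nearest the 5′ end. Over 21 members the median of this gap was 2.09 and 1.87 in the control arrays and 2.60 and 2.31 in the Xpo5 siRNA arrays, and over 5179 genes it was 2.20 and 1.85 against 2.06 and 1.79. Taken gene by gene, the gap changed by a median of -0.03 in the members and -0.05 in all these genes, and it was wider with Xpo5 siRNA in 9 of the 21 members, or 42.9%, against 42.7% of all. The medians of the members' gap and the median of its changes thus differ in sign. The part of RNA quality in the members' difference was not tested.

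**Figure D1:**
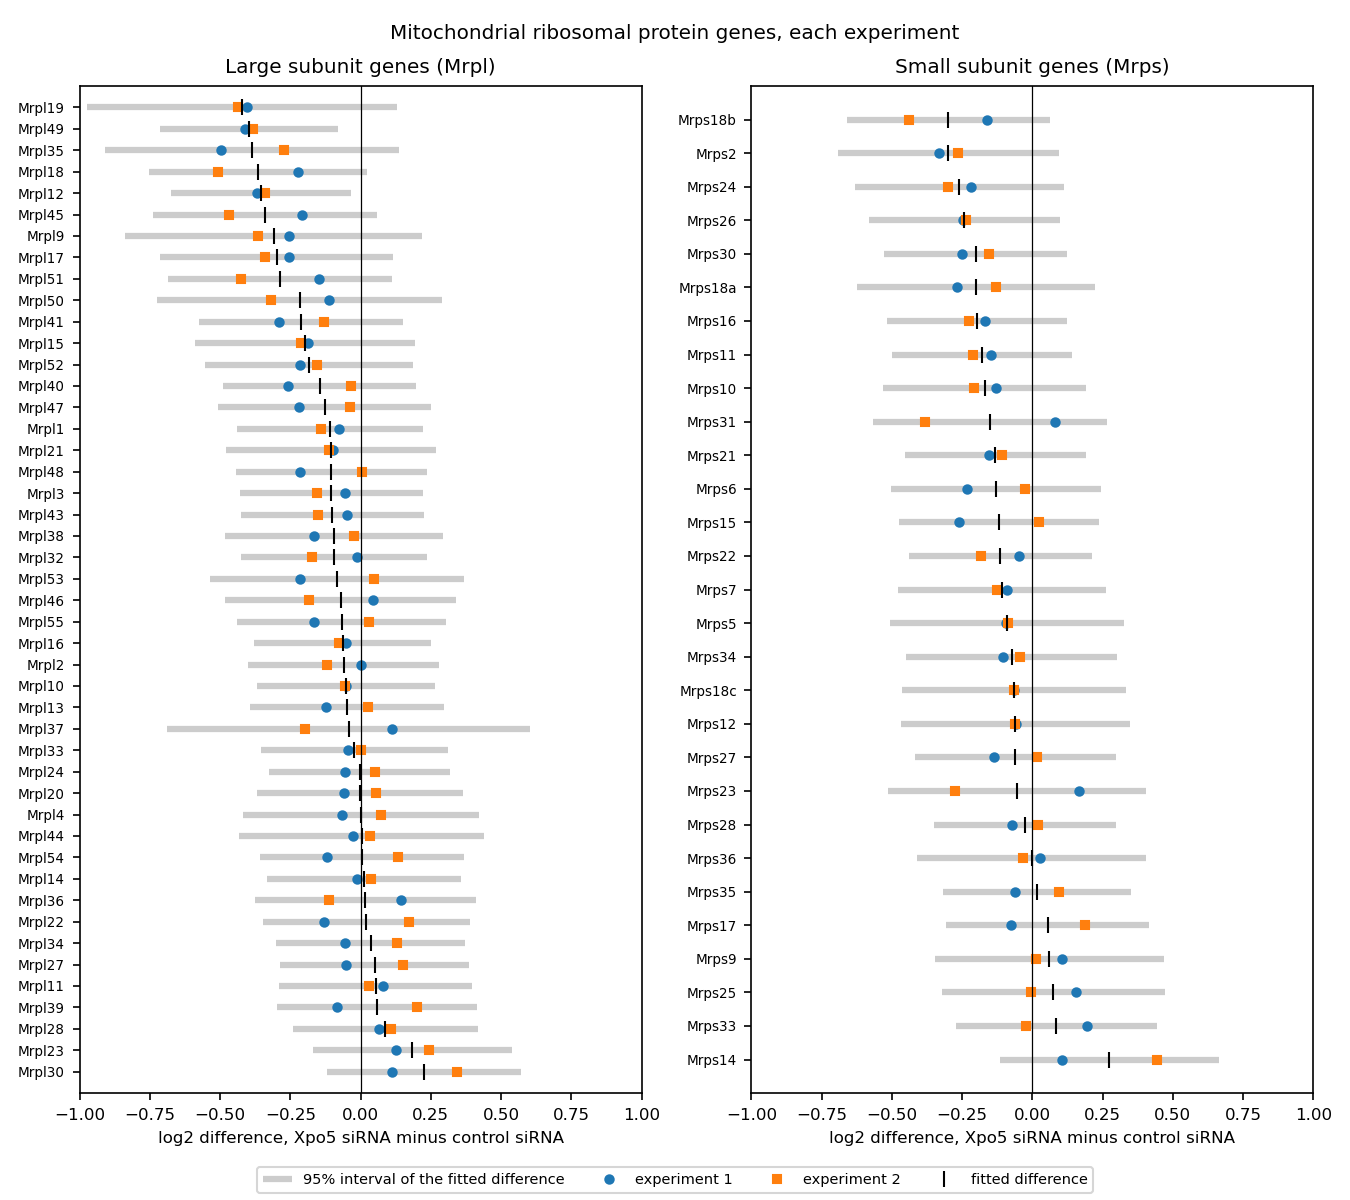
Fitted log2 difference of Xpo5 siRNA minus control siRNA for each of the 46 Mrpl genes (left) and 29 Mrps genes (right), with its 95% interval as a grey bar (limma, n = 2 arrays per group) and the difference within each of the 2 experiments as a circle and a square. Most points lie left of 0, from -0.42 for Mrpl19 to 0.27 for Mrps14, and only the intervals of Mrpl49 and Mrpl12 lie wholly below 0.

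No member passed the test. In limma 0 of 75 had an adjusted p under 0.05, where 0.0215% of all genes did (3 of 13923), and the smallest adjusted p of a member was 0.260, for Mrpl49. With 1 array left out, 26, 0, 27 and 5 genes passed without replicate 1 of control siRNA, replicate 1 of Xpo5 siRNA, replicate 2 of control siRNA and replicate 2 of Xpo5 siRNA, and 0 members each time, in fits that assume the lone array of a group to vary like the other group. When the replicate number entered limma as a block, to remove the difference between the experiments, 4.36% of all genes passed and again 0 members, the smallest adjusted p being 0.0830 for Mrpl19. At an unadjusted p under 0.05, 2 members were lower, Mrpl49 and Mrpl12, or 2.67% against 5.81% of all genes, and 0 were higher, against 8.87% of all genes. With the block 9 were lower, 8 of the large subunit and Mrps2, or 12.0% against 12.3% of all genes, and again 0 higher, against 16.2%. The members' share of lower calls was thus below the background without the block and near it with the block, and their share of higher calls was 0 in both fits.

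The order of the arrays leaned further to one side. In 27 members, or 36.0%, both Xpo5 siRNA arrays read below both control arrays, against 22.9% of all genes. In 4 members, Mrpl23, Mrpl28, Mrpl30 and Mrps14, or 5.33%, both read above, against 24.7% of all genes. In the other 44 the groups overlapped. Within the experiments, 41 members, or 54.7%, were lower in both, against 35.2% of all genes, 6, or 8.0%, were higher in both, against 36.7% of all genes, and 28 had different signs. On the slides 30 members, or 40.0%, were lower on both, against 25.7% of all genes, and 6 were higher on both, against 28.1%. The median difference was -0.09 in experiment 1 and -0.08 in experiment 2. On slide 1, which paired replicate 2 of control siRNA with replicate 1 of Xpo5 siRNA, the median was -0.07, and on slide 2, with the other arrays, -0.11. These counts have no test of their own, since an exact permutation test of 2 arrays against 2 cannot give a p under 0.333 and members are not replicates of a condition.

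The count of lower members depends on how the arrays are scaled. Scaling to the median of each array moved the median of all genes to -0.10, the members to -0.19 and the count to 72 lower, so that the members stood about as far from all genes as before. Quantile normalization gave a median of -0.05 and 52 lower, with all genes at 0.003.

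**Figure D2:**
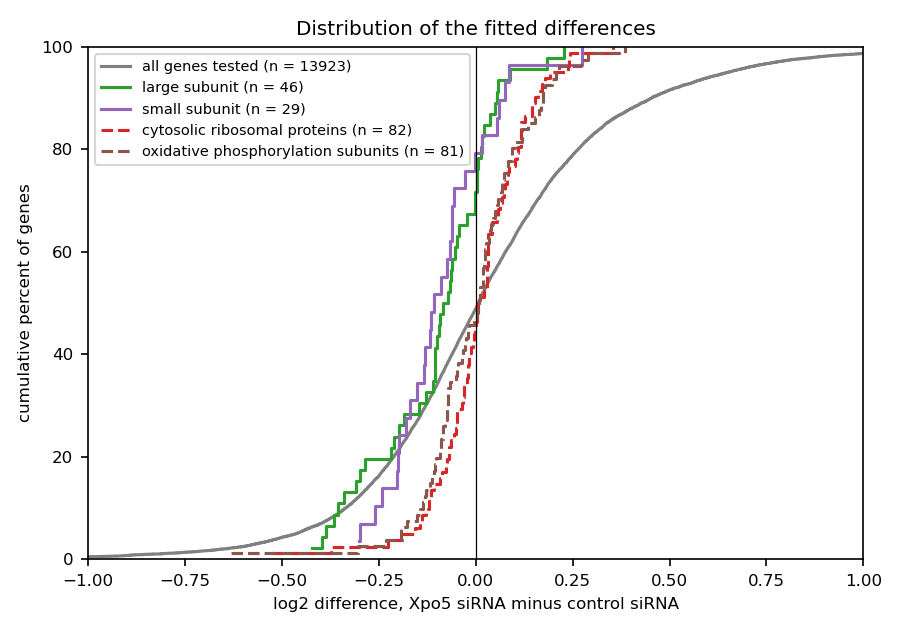
Cumulative percent of genes (vertical axis) against the log2 difference of Xpo5 siRNA minus control siRNA, for all 13923 genes tested, 46 large and 29 small subunit genes, 82 cytosolic ribosomal protein genes and 81 nuclear genes of oxidative phosphorylation. The axis stops at 1 unit on either side, beyond which some of all genes lie. The curves of both mitochondrial subunits rise to the left of 0, with medians of -0.08 and -0.11, while the cytosolic ribosomal and oxidative phosphorylation curves cross 50% at 0.01, and all 4 groups are narrower than all genes.

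Among large subunit genes the clearest differences were in Mrpl49 and Mrpl12. Mrpl49, a protein found only in mitochondrial ribosomes, read 2.85 and 2.83 in the control arrays and 2.44 and 2.45 in the Xpo5 siRNA arrays, at a probe on mm9 chr19:6054723-6054782. The arrays of each group read almost the same, and the groups did not overlap. The difference was -0.40 ± 0.12 (SE, n = 2 per group; limma adjusted p = 0.260, and 0.0915 with the replicate block), which is 76.0% of the control signal. Mrpl12, the protein of the flexible stalk that recruits translation factors, read 4.59 and 4.53 against 4.22 and 4.19, at a probe on mm9 chr11:120349740-120349799. Its difference was -0.36 ± 0.13 (adjusted p = 0.306, and 0.110 with the block), and the experiments again gave almost the same value, -0.37 and -0.34.

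Another 6 named large subunit genes had differences from -0.42 to -0.29 with larger SEs than Mrpl49 and Mrpl12. Mrpl19 read 1.25 and 0.87 in the control arrays and 0.85 and 0.44 in the Xpo5 siRNA arrays. Its experiments differed in level by about as much as the siRNAs did, and within them the differences were -0.41 and -0.44, while on the slides they were -0.03 and -0.81. Its fitted value of -0.42 had an SE of 0.21 and went from -0.63 to -0.22 with 1 array left out, the values nearest to 0 being -0.23 without control replicate 1 and -0.22 without Xpo5 siRNA replicate 2. Mrpl35 read 3.68 and 3.22 against 3.18 and 2.95, a difference of -0.39 ± 0.20. It was -0.04 and -0.73 on the slides, -0.16 without control replicate 1 and -0.62 without control replicate 2. Mrpl18, which in bacteria binds the small ribosomal RNA of the large subunit and in mammalian mitochondria sits beside a structural tRNA, read 3.42 and 3.43 against 3.20 and 2.92. Its controls were alike and its Xpo5 siRNA arrays lay apart from each other, for a difference of -0.36 ± 0.15, which was -0.23 without Xpo5 siRNA replicate 2. Mrpl45, which helps to hold the ribosome at the inner membrane near the tunnel exit, read 2.95 and 3.25 against 2.74 and 2.78, a difference of -0.34 ± 0.15, which was -0.19 without control replicate 2. Mrpl17, another protein near the tunnel exit, differed by -0.30 and Mrpl51 by -0.29, also with no overlap between groups. Limma adjusted p values of these 6 genes lay between 0.362 and 0.462, and between 0.0830 and 0.203 with the block. Mrpl9, which the rule for naming did not pick, also lay in this range, at -0.31 ± 0.21 with overlapping groups. Its limma adjusted p was 0.540, and 0.144 with the block, and on the slides it read -0.68 and 0.06.

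The remaining named large subunit genes lay nearer to 0 or above it. Mrpl30 read 3.15 and 3.07 in the control arrays and 3.26 and 3.41 in the Xpo5 siRNA arrays, a difference of 0.23 ± 0.13 (limma adjusted p = 0.496). Mrpl23, another protein of the tunnel exit, read 4.62 and 4.44 against 4.75 and 4.69, a difference of 0.18. Neither passed, and both had no overlap between groups. Mrpl3, which reaches towards the peptidyl transferase centre, read 3.72 and 3.82 against 3.67 and 3.67, a difference of -0.10. Mrpl11, of the base of the stalk, stood at 0.05 and Mrpl44 at 0.004, both with overlapping groups and at -0.05 and -0.10 when the arrays were scaled to their median.

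**Figure D3:**
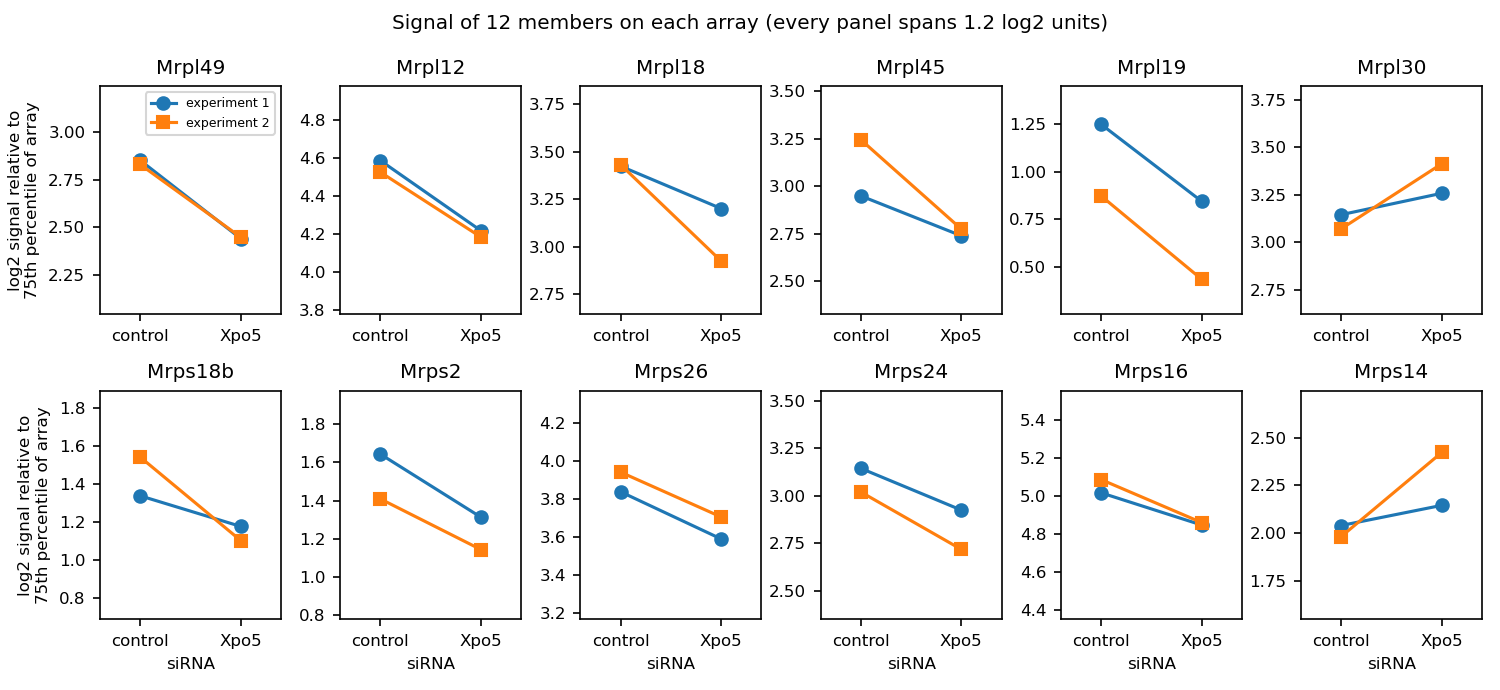
Log2 signal, as the height above the 75th percentile of each array, for 12 members, in control and Xpo5 siRNA arrays, with a line joining the arrays of the same replicate number. Every panel spans 1.2 log2 units. In Mrpl49 and Mrpl12 the 2 experiments lie on top of each other and go from 2.85 and 4.59 in control replicate 1 to 2.44 and 4.22, in Mrpl19 the lines run parallel at different levels, and Mrpl30 and Mrps14 slope upward.

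Small subunit genes went down to -0.30, and 0 of 29 had an unadjusted p under 0.05 in limma without the block. Mrps18b, 1 of 3 mammalian relatives of a bacterial small subunit protein, read 1.34 and 1.54 in the control arrays and 1.18 and 1.10 in the Xpo5 siRNA arrays, a difference of -0.30 ± 0.14 (limma adjusted p = 0.406, and 0.190 with the block), or -0.20 without control replicate 2. Mrps2 read 1.64 and 1.41 against 1.31 and 1.14, a difference of -0.30 ± 0.15, with -0.33 and -0.27 within the experiments, -0.10 and -0.50 on the slides, and -0.18 without control replicate 1. Mrps24, which sits at the entry of the messenger channel, read 3.14 and 3.02 against 2.92 and 2.72, a difference of -0.26. Mrps26 read 3.84 and 3.94 against 3.59 and 3.71, a difference of -0.24. In these 4 genes the groups did not overlap. Mrps16 followed at -0.20, reading 5.02 and 5.09 against 4.85 and 4.86, and Mrps11, of the platform, at -0.18. Mrps7, of the head, and Mrps22 stood at -0.11 each, and Mrps12, of the decoding centre, at -0.06.

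Mrps14 had the largest positive difference of all members. It read 2.04 and 1.98 in the control arrays and 2.15 and 2.42 in the Xpo5 siRNA arrays, a difference of 0.27 ± 0.15 (limma adjusted p = 0.471, and 0.240 with the block). Most of it came from experiment 2, at 0.44 against 0.11 in experiment 1, and without Xpo5 siRNA replicate 2 it was 0.13. Mrps33, the next of the named genes upward, read 5.10 and 5.30 against 5.30 and 5.28, and its groups overlapped around a difference of 0.09, which was -0.02 with median scaling.

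Names and places do not always match in this family. Mrps18a and Mrps30 keep small subunit names, but their proteins sit in the large subunit, and Mrps36 is now described as part of the 2-oxoglutarate dehydrogenase complex rather than of the ribosome. Mrps18a read 3.20 and 2.90 against 2.93 and 2.77, a difference of -0.20 with overlapping groups. Mrps30 read 2.88 and 2.78 against 2.63 and 2.63, also -0.20, without overlap. Mrps36 read 3.03 and 2.84 against 3.06 and 2.81, a difference of -0.0030 with overlapping groups (0.03 with quantile normalization). The relatives Mrps18a, Mrps18b and Mrps18c stood at -0.20, -0.30 and -0.07.

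The median differences of the large and the small subunit lay close together. The median difference was -0.08 over 46 Mrpl genes, 33 of them lower, and -0.11 over 29 Mrps genes, 23 of them lower. The gap between the median levels of the subunits, which is another measure, had an SD of 0.0871 between arrays of a group. The large median difference minus the small one was 0.03, with 0.002 in experiment 1, 0.02 in experiment 2, 0.06 on slide 1 and 0.02 on slide 2. With the 2 misnamed genes moved to the large subunit and Mrps36 left out it was 0.01, with -0.01 in experiment 1, -0.02 in experiment 2, 0.06 on slide 1 and 0.005 on slide 2. The median levels of the large subunit were 3.20 and 3.20 in the control arrays and 3.14 and 2.97 in the Xpo5 siRNA arrays, and those of the small subunit 2.80 and 2.78 against 2.63 and 2.63. The sign of the gap between the subunits turned to -0.02 when every probe was counted on its own and to -0.03 with normexp background correction, so no direction between them is given.

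By origin as the uniform names of ribosomal proteins give it, the 46 members with a bacterial counterpart had a median difference of -0.07 and the 28 found only in mitochondria one of -0.10. These names count Mrps18a and Mrps18b as mitochondrial although they are relatives of a bacterial protein, and with both moved to the first class the medians were -0.08 and -0.10. Within the large subunit, by place, the 18 proteins found only in mitochondria stood at -0.13 and the 30 with a bacterial counterpart at -0.06. In the first group 15, or 83.3%, were lower, and in the second 20, or 66.7%, against 48.8% of all genes. Below both controls on both arrays were 8, or 44.4%, and 10, or 33.3%, against 22.9% of all genes. The first group read -0.19 and -0.14 in the experiments and the second -0.06 and -0.05. On the slides they read -0.07 and -0.26, and -0.02 and -0.06. Within the small subunit the order was the other way round, with -0.07 over 10 mitochondrial proteins and -0.11 over 16 with a bacterial counterpart. The difference between these classes was not tested.

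Members with and without the NRF1 or ETS motif had nearly the same median, and those with the YY1 motif a lower one, none of which was tested. The 15 members with an NRF1 match had a median of -0.09 and the 51 without one -0.10. The 24 members with an ETS match stood at -0.10 against -0.08, and the 9 with a YY1 match at -0.18 against -0.09. Of the genes printed above, Mrpl12 and Mrpl45, with NRF1 matches, and Mrpl49, with no match, were all among the lowest.

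Several members could be read by more than 1 probe. There were 125 member probes, of which 6 were too dim and 119 were kept, and all 75 chosen probes were well above background on all 4 arrays. A single probe represented 42 members. Of 30 members with several kept probes, 18 had the same sign on all of them and 12 did not, with a median gap of 0.15 between the highest and the lowest probe. All probes of Mrpl49 were lower, at -0.40, -0.27 and -0.25, and so were those of Mrpl18, at -0.36, -0.29 and -0.37, and of Mrpl45, at -0.34 and -0.52. Mrpl35 read -0.39 on its brightest probe and -0.91 and -0.81 on both of its dimmer ones. Those of Mrps2 disagreed, at -0.30, -0.19 and 0.04. Among named members the signs also differed in Mrpl3, from -0.49 to 0.07, and in Mrpl44, from -0.11 to 0.22. The same held for Mrps18c, at -0.07 and 0.03, and for Mrps36, at -0.0030 and 0.03. Mrpl12, Mrpl19 and Mrps14 each had 1 probe and no such check.

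Differences in the rest of the mitochondrial translation system were mostly small as well. Of 7 further proteins of the ribosome 6 were lower, with a median difference of -0.11. The largest was in Gadd45gip1, a large subunit protein also known as CRIF1, which read 4.32 and 3.99 in the control arrays and 3.77 and 3.52 in the Xpo5 siRNA arrays, a difference of -0.51 ± 0.18 (limma adjusted p = 0.307, and 0.0653 with the block). Ptcd3, of the small subunit, stood at -0.25, and Dap3, which binds GTP there, at 0.09. In limma 0 of the 7 passed in either fit. Gadd45gip1 was the 1 with an unadjusted p under 0.05, or 14.3%, against 5.81% of all genes lower at that threshold.

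Among factors that build or serve the ribosome 0 passed in limma in either fit, and Pus1, lower, and Wars2, higher, had an unadjusted p under 0.05. Of all genes 5.81% were lower and 8.87% higher at that threshold, and 48.8% were lower at any p. The 24 assembly factors had a median of -0.04 with 17 lower, among them Eral1, a chaperone of the small ribosomal RNA, at -0.50 and Noa1, a GTPase of assembly, at -0.27. The 15 translation factors stood at -0.08 with 11 lower. Of these the recycling factor Mrrf read -0.17 and the elongation factor gene Tsfm -0.19, while Slirp, which protects mitochondrial messengers, read 0.34. The 12 genes of tRNA modification stood at -0.07, and Pus1, a pseudouridine synthase, at -0.46 ± 0.12. The 17 mitochondrial tRNA synthetases stood at -0.12 with 11 lower and a wide range, from -0.38 for Yars2 to 0.53 for Wars2 and 0.72 for Lars2.

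Of 19 genes for copying, transcribing and processing mitochondrial nucleic acids 18 were tested, with a median of -0.08 and 15 lower. Tfb2m, which opens the promoters of mitochondrial DNA for its polymerase, fell with the replicate block (limma adjusted p = 0.0456) and did not pass without it (adjusted p = 0.179). It read 0.55 and 0.22 in the control arrays and -0.29 and -0.48 in the Xpo5 siRNA arrays, without overlap, a difference of -0.77 ± 0.17. The polymerase gene Polrmt stood at -0.19 and Tfam, which packages mitochondrial DNA, at 0.26, both with overlapping groups. Transcripts of the mitochondrial genome were read for 4 of 15 genes. In limma 0 of these passed in either fit and 0 had an unadjusted p under 0.05, with ATP6 at -0.23, CYTB at -0.20, ND4 at -0.15 and COX2 at 0.24.

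Of 9 regulators of mitochondrial biogenesis 8, or 88.9%, were lower, against 48.8% of all genes, with a median of -0.16. In limma 0 passed in either fit. Myc and Ppargc1b, 2 of the 9, or 22.2%, were lower at an unadjusted p under 0.05, against 5.81% of all genes. Myc read 2.18 and 1.95 in the control arrays and 1.59 and 1.44 in the Xpo5 siRNA arrays, a difference of -0.55 ± 0.15 (limma adjusted p = 0.228, and 0.0584 with the block). Nrf1 stood at -0.53 and Gabpb1, a subunit of GABP, at -0.53, each with an SE of 0.29 and overlapping groups, while its partner Gabpa stood at -0.02. The coactivator gene Ppargc1b stood at -0.39 and Yy1 at -0.14. Within the slides Nrf1 read -1.09 and 0.03.

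Lists outside mitochondrial translation set the scale. The 82 cytosolic ribosomal protein genes had a median of 0.01 (-0.10 with median scaling, as for all genes). Of these 37, or 45.1%, were lower, against 48.8% of all genes, and 7, or 8.54%, lay below both controls on both arrays, against 22.9%. In limma 0 of them passed in either fit, and 1, or 1.22%, was lower at an unadjusted p under 0.05, against 5.81% of all genes. The 81 nuclear subunits of oxidative phosphorylation, whose partners the mitochondrial ribosome makes, also had a median of 0.01 (-0.10 with median scaling), with 38 lower. Of these Ndufa8, of complex I, fell with the block (limma adjusted p = 0.0498) by 0.63. The 29 genes of cytosolic ribosome biogenesis had a median of -0.24 with 27 lower, and 0 passed in limma in either fit. At an unadjusted p under 0.05, 8 of them, or 27.6%, were lower, against 5.81% of all genes. The 20 genes of the G1 to S transition had a median of -0.45 with 19 lower. Of these genes 16, or 80.0%, read below both controls on both arrays, against 22.9% of all genes. At an unadjusted p under 0.05 in limma 13, or 65.0%, were lower, against 5.81% of all genes. With the block 3 fell, Ccne2, Cdc6 and Mcm5, where 192 of all 13923 genes did. Whether the members' small shift differs from that of these lists was not tested, and the part of the cell cycle in it was not tested either.

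**Figure D4:**
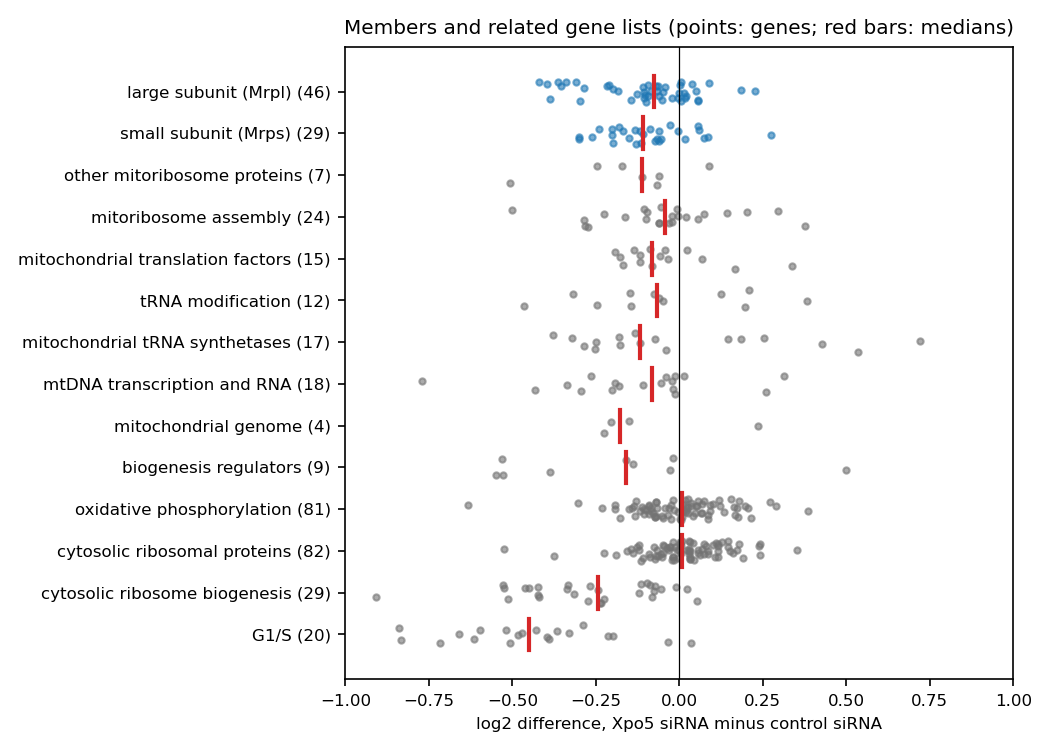
Log2 difference of Xpo5 siRNA minus control siRNA for each gene of 14 lists, with the number of genes in brackets and the median as a red bar. The medians of the large and small subunit genes, -0.08 and -0.11, lie between those of cytosolic ribosomal proteins at 0.01 and of cytosolic ribosome biogenesis at -0.24, and the G1/S genes lie lowest at -0.45.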

How the data were processed

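Per the labels' protocols, Cy3-labelled copies of the total RNA of 4 samples were put on Agilent arrays of 1 colour. Scanner files deposited by the authors hold the intensity of each spot on a linear scale, with the background already subtracted in Feature Extraction (Agilent, version 10.5.1.1), per the file headers. A series table of log2 values, also deposited, is the log2 of that processed signal with every array moved to a median of 5.33, as checked against the scanner files, and served as an alternative. Of 43379 non-control spots an array, 77 to 134 were outliers and left out, 0 were saturated, and 62.4% to 65.0% were well above background. The number of arrays limits the precision.

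The log2 signal minus the 75th percentile of the array was averaged over the spots of each of 41174 probes. The filter on dim probes asked for 1 group with both its arrays well above background and kept 25641. Symbols came from the RefSeq table of GRCm38.p6, matched by accession for 26690 probes, by symbol for 5189 and by synonym for 952, with 8343 unmatched. Each gene was read by its brightest probe. The files give probe positions on mm9.

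The siRNAs were compared in limma 3.58.1 (R 4.3.3) with lmFit and eBayes, two-sided, with Benjamini-Hochberg adjustment over all genes tested at 0.05. The fit was run on simulated data with known changes, which it returned on average. The replicate number was taken to mark the experiment, of which the series text names 2. Over 13917 genes, same-numbered arrays deviated together from their group means (r = 0.451), so the fit with the replicate number as a block is given where it changes a count. Whether the experiments drew on different embryos is not given in the labels, and p-values cover the spread of these samples only, which may be technical. The members, lists and alternatives were chosen with earlier results of these data known. Named members are, for each subunit, the 8 with the smallest unadjusted p and the 2 with the largest difference in each direction, and landmark proteins. In each list up to 4 genes with the smallest p are eligible to be named. Mrpl9, Mrpl28, Mrpl42, Mrpl58, Dap3, Polrmt, Tfam, Gabpa, Yy1, Itgam, Fcgr1, Tubb3 and Mcm5 were named after their values were seen. The alternatives were 2 forms of normexp, median and quantile scaling, other filters and probe rules, an intensity trend, blocks, each array left out and the deposited table. Centring on the median of the genes tested was added after seeing the data.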

Additional observations from a re-analysis of the deposited data

How the results depend on the processing

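With 2 arrays per group the precision of a single member is low, and a difference as small as most of these was not detectable. The count of members that passed in limma was 0 under every alternative fitted, where the fits with 1 array left out take the lone array of a group to vary like the other group. The members' median stayed below 0 under all of them. It moved to -0.19 with median scaling and with the deposited log2 table, with -0.18 and -0.18 for the large and -0.21 and -0.21 for the small subunit, since these settings lower all genes. Normexp fitted after dropping spots whose local background the scanner marked uneven gave -0.11, and over all spots -1.27 for the members, -1.27 for the large and -1.23 for the small subunit and -0.0339 for large minus small, with -0.16 for all genes. Large minus small was also below 0 with normexp without the marked spots, at -0.0326, and over every probe, at -0.0168. Leaving out 1 array gave -0.10 to -0.06 for the members, -0.09 to -0.05 for the large and -0.15 to -0.08 for the small subunit, and 0.01 to 0.07 for large minus small.

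Of all genes, 3 passed as reported, 0 with normexp over all spots, with no filter on dim probes and with every probe on its own, 1 with the filter on all 4 arrays and with the mean over probes, 8 with median scaling and the deposited table, and 0 to 27 with 1 array left out. With the replicate number as a block 607 passed and 0 members, and the pairing changed no member's call. Xpo5 missed the threshold with normexp over all spots (-2.08 ± 0.77, limma adjusted p = 0.595), with no filter (-3.23), with the mean over probes (-2.55) and with every probe on its own. Its difference ranged from -3.25 to -3.20 with 1 array left out.

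Among named members, signs turned with normexp over all spots for Mrpl11 (-1.24), Mrpl23 (-1.27), Mrpl30 (-1.10), Mrpl44 (-0.54), Mrps14 (-0.72) and Mrps33 (-1.14), with SEs from 0.74 to 1.06. Without the marked spots the sign turned for Mrps22 (0.11). They turned for Mrpl11 (-0.0508 and -0.0513), Mrpl44 (-0.10 and -0.10) and Mrps33 (-0.0199 and -0.0204) with median scaling and the deposited table, and for Mrps36 (0.0332, 0.0126 and 0.00588) with quantile scaling, the mean over probes and centring. With 1 array left out the difference went from -0.175 to 0.0517 for Mrps12, from -0.173 to 0.0416 for Mrps18c, from -0.0154 to 0.186 for Mrps33, from -0.129 to 0.123 for Mrps36, from -0.0153 to 0.125 for Mrpl11 and from -0.142 to 0.149 for Mrpl44. The turns with median scaling and the deposited table follow from the shift that these settings give to all genes. The causes of the other turns were not tested.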

Other observations

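Genes of the mitochondrial ribosome that the array carries under older names fall outside the choice by symbol. Mrpl42, listed under a clone name, read 4.28 and 3.94 in the control arrays and 3.89 and 3.77 in the Xpo5 siRNA arrays, a log2 difference of -0.28 ± 0.17 (SE; 2 arrays a group; limma adjusted p = 0.498, and 0.192 with the replicate block), without overlap of the groups. Mrpl57, listed as Mrp63, stood at -0.17, and Mrpl58, which releases stalled ribosomes and is listed as Ict1, at -0.07, both with overlapping groups.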
